A study of Mus musculus with 48 samples.

Results

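RAW264.7 cells, a mouse macrophage line transformed by a leukaemia virus, were compared after 72 h with IFN-γ and after 72 h with PBS, the vehicle. The comparison used 6 of the 48 libraries of the series: the 3 letter-labelled libraries of the IFN-γ group and the 3 letter-labelled libraries of the PBS group, taken by their labels. IFN-γ was added at 5 ng/ml, the medium of both groups was refreshed at 48 h, and neither group received a peptide. The other groups of the series received 1 of 3 synthetic 15-residue peptides (LE, SE or PE, at 100 µg/ml) with or without IFN-γ. Polyadenylated RNA was sequenced, and the deposited values are read counts per gene. The study calls its replicates biological and reports that they come from more than 1 independent experiment. The labels do not say which experiment a library belongs to. All libraries come from 1 cell line, which limits them as a model of macrophages, and in such bulk RNA fewer cells of a kind and less RNA per cell cannot be told apart.

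IFN-γ is the cytokine by which T cells and NK cells activate macrophages. Its receptor signals through the kinases JAK1 and JAK2, and the signal reaches GAS elements in promoters. Among the genes induced are the regulators IRF1 and CIITA, and IRF1 in turn acts on ISRE-type elements. The known outcome in macrophages is antigen presentation on MHC class II and class I, GTPases that attack intracellular microbes, T cell-attracting chemokines, and nitric oxide.

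Totals were 21.2 to 24.4 (median 22.9) in units of 1000000 counts per library, and 16548 to 17647 genes had a count. Between 7.49% and 8.10% of a library came from its top 10 genes. The labels were checked on the summed level of 11 guanylate-binding protein genes, in CPM (a gene's count after all counts of that library are scaled to add up to 1000000). The sum was 32.3 to 34.3 CPM in the 3 PBS libraries and 602 to 637 CPM in the 3 IFN-γ libraries, and over all 24 letter-labelled libraries it was 491 to 1471 CPM in the 12 with IFN-γ and 20.9 to 35.8 CPM in the 12 without. In the HLA-labelled libraries, which were left out for this measured reason, it was 45.8 to 52.3 CPM in those labelled IFNy and 52.7 to 66.3 CPM in those labelled PBS. The first principal component held 79.0% of the variance and separated the groups. The second held 7.95% and separated PBS replicate 1 from the other PBS libraries, so values without that library are given beside calls that it changes and other results that it moves by over 1.5 times. The defining marker genes of T cells (Cd3d, Cd3e, Cd3g, Cd8a), B cells (Ms4a1), NK cells (Ncr1, Prf1, Gzmb, Eomes) and epithelial cells (Epcam, Krt8, Krt18) were at 0 counts in all 6 libraries. Csf1r, the receptor for the macrophage growth factor, was at 1044, 1093 and 1080 CPM in PBS and 832, 720 and 840 CPM with IFN-γ, and Adgre1, which encodes the macrophage marker F4/80, was detected in every library.

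Of 12242 genes tested, 2213 were called, that is, had an adjusted p under 0.05 (edgeR quasi-likelihood test, Benjamini-Hochberg) and a fold change over 1.5. This was 18.1% of genes: 1199 were higher with IFN-γ (9.79%) and 1014 lower (8.28%). By fitted values 679 genes were over 2-fold, 130 over 8-fold and 48 over 64-fold higher, and 386, 30 and 1 were lower by as much. With genes at 0 in PBS set to their lower bound, described next, the counts of higher genes were 679, 120 and 26. Among called genes 1186 of 1199 higher and 1005 of 1014 lower genes had no overlap between the groups, where 51.7% of all tested genes had none. The median log2 fold change over all tested genes was -0.01. In 23 of the higher genes all 3 PBS libraries had 0 counts, so that their fold change is given as a lower bound against 3 counts per library, which covers counting error only. These 23 genes passed the filter on low counts through the IFN-γ libraries alone and could only be called higher.

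**Figure D1:**
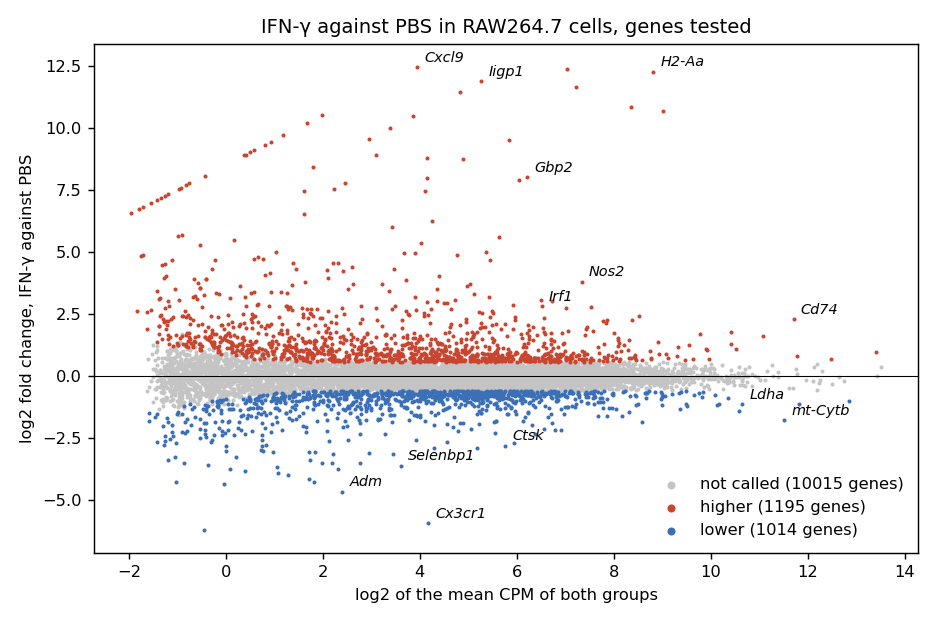
Log2 fold change of IFN-γ against PBS (vertical axis) by the log2 of the mean CPM of both groups (horizontal axis), 1 point per tested gene whose name was usable, red for called higher and blue for called lower. The largest fitted changes are above the line, and the straight row of points at the upper left is made of genes with no or hardly any count in PBS.

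Genes of transcription factors in the pathway rose, while neither receptor chain was called higher. Irf1 (chromosome 11, 53770014 to 53778374, GRCm38) was at 22.8, 23.9 and 21.5 CPM in PBS and at 144, 189 and 147 CPM with IFN-γ, a log2 fold change of 2.84 (SE 0.112, adjusted p 5.02e-09). The groups were well apart. Stat2, which acts with IRF9 in interferon signalling, rose by 1.31. Of the receptor chains, Ifngr2 fell by 0.64 on the log2 scale (adjusted p 3.88e-05) and Ifngr1 was at -0.24 and not called. The kinases Jak1 (0.32) and Jak2 (0.55) stayed under the fold threshold. Of 8 tested interferon regulatory factors, Irf1, Irf7 (0.91) and Irf8 (0.76) rose, Irf4 fell by 0.74 and 4 were not called. Feedback genes also rose: Socs1, which blocks JAK kinases, by 2.37 (SE 0.276, adjusted p 4.69e-05), Nmi by 1.08, Socs3 by 0.64 and the phosphatase gene Ptpn2 by 0.61. The calls of Socs3 and Ptpn2 lay near the fold threshold. Socs3 was not called without IFN-γ replicate 2 (0.50) or PBS replicate 1 (0.57), nor Ptpn2 without IFN-γ replicate 3 (0.54) or PBS replicate 2 (0.55).

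Some of the genes that rose carry recognisable elements directly before their start. The 150 bases upstream of 4 of them are shown, from RefSeq on GRCm38.p6, with capitals on matches to TTCNNNGAA, the palindrome of a GAS element, or to GAAANNGAAA on either strand, the core of an ISRE-type element. They were chosen because they hold a match and their RefSeq start is also the GENCODE gene start.
Irf1 (chr11:53769864-53770013, plus strand): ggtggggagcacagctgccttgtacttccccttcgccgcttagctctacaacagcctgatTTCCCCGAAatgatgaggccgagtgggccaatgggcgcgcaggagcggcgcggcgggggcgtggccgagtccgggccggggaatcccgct
Igtp (chr11:58199406-58199555, plus strand): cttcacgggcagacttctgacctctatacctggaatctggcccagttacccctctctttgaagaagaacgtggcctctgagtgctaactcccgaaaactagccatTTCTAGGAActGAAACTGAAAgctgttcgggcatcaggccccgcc
Socs1 (chr16:10785537-10785686, minus strand): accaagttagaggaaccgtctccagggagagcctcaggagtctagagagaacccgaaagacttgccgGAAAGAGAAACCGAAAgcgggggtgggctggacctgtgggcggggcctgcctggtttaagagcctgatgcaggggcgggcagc
Isg15 (chr4:156200819-156200968, minus strand): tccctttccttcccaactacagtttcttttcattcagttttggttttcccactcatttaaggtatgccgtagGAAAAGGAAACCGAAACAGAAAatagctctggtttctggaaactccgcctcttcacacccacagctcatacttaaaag
The Irf1 match TTCCCCGAA began 90 bases before the start. Igtp held a GAS-like match at 45 and an ISRE-like match at 34 bases before its start. The 2 ISRE-like matches of Socs1 and the 3 of Isg15 overlapped each other.

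Over all tested genes, matches were most frequent before the genes that rose most, which is given as a description without a test. Promoter windows of 300 bases (250 before to 50 after the start) were found by symbol for 9037 of the tested genes, and a gene with several windows was counted as holding a motif if any of them did. TTCNNNGAA was in the windows of 20.8% of the 77 genes over 8-fold higher by fitted values, 8.42% of the 772 other higher genes, 7.40% of the 743 lower genes and 8.19% of the 7445 genes not called. GAAANNGAAA was in 28.6%, 8.68%, 3.23% and 3.38% of them. Among all 32851 windows of the table these shares were 8.30% and 3.44%. The windows of Cxcl9, H2-Aa and Cd274 held neither set of letters, and that of Ciita was not in the table. Genes over 8-fold higher include gene clusters with related sequence, so these windows are not independent, and a match is only a match of letters.

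Both families of GTPases that attack the vacuoles of intracellular microbes rose as a whole. All 11 guanylate-binding protein genes were called higher, with a median log2 fold change of 7.90 from fitted values and 5.57 with genes at 0 in PBS at their bound. The summed level of these same genes was the check by which libraries were kept or left out, so their rise is not a separate result. Gbp2 (chromosome 3, 142620602 to 142638008) went from 0.676, 0.498 and 0.516 CPM to 157, 135 and 151 CPM (log2 fold change 8.03, SE 0.133, adjusted p 5.18e-12). Gbp4 was at 0.211, 0.0906 and 0.141 CPM in PBS and at 115, 121 and 105 CPM with IFN-γ. In PBS both were close to the detection limit. Gbp8 differed from the rest in being expressed without IFN-γ, at 27.8, 29.0 and 30.6 CPM, and rose to 125, 119 and 121 CPM, by 2.08. Gbp6, Gbp10 and Gbp11 had no count in PBS and were at least 6.24-fold, 28.1-fold and 47.5-fold higher. Gbp5 had 1 count over the PBS libraries and 15.1, 19.0 and 11.9 CPM with IFN-γ, a ratio of 1041 (counting interval 186 to 41147). All 11 immunity-related GTPase genes were called higher as well, with a median of 7.57 from fitted values and 3.18 with the bounds. The regulatory members Irgm1, Irgm2 and Igtp were already at 55.8 to 64.5, 10.4 to 15.7 and 8.40 to 8.78 CPM in PBS and rose by 1.84, 2.56 and 3.18. Iigp1, an effector, had 1 count over the PBS libraries and 68.8, 104 and 58.6 CPM with IFN-γ, a ratio of 5228 with a 95% counting interval of 938 to 206531. The values of Tgtp1 and Tgtp2 are uncertain, since reads that near-identical copies share were not counted.

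**Figure D2:**
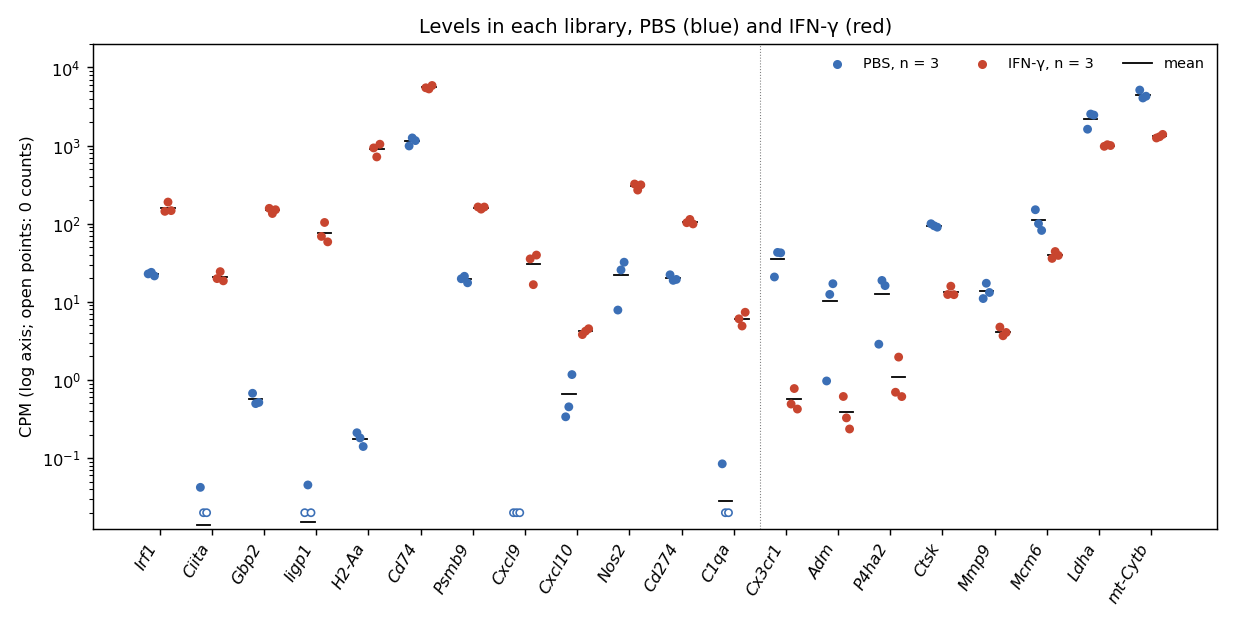
CPM in each library on a log axis for 12 genes that rose (left of the dotted line) and 8 that fell, with PBS in blue, IFN-γ in red, black bars for the mean and open points for 0 counts. PBS and IFN-γ points do not overlap for any of these genes, some of which were chosen for this. No overlap was seen for 51.7% of all tested genes. For Adm and P4ha2 the lowest PBS point, replicate 1, lies near the IFN-γ points.

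Genes of MHC class II presentation went from near absent to abundant. All 10 tested members were called higher, and H2-Eb2 was at 0 in every library. Ciita, the master regulator of class II genes (chromosome 16, 10480059 to 10528418), had 1 count over the PBS libraries and was at 19.8, 24.4 and 18.6 CPM with IFN-γ. H2-Aa (chromosome 17, 34282744 to 34287823), the alpha chain of I-A, rose from 0.211, 0.181 and 0.141 CPM to 935, 717 and 1042 CPM, a log2 fold change of 12.27 (SE 0.235, adjusted p 1.05e-11). H2-Ab1 and H2-Eb1, the beta chains of I-A and I-E, rose by 10.84 and 10.69. The invariant chain gene Cd74 was unlike these in its starting level. It was at 990, 1255 and 1159 CPM in PBS and at 5499, 5315 and 5885 CPM with IFN-γ, and rose by 2.31. Per kilobase of exon, Cd74 in PBS stood at 676 CPM and H2-Aa at 0.0468, and with IFN-γ the levels were 3315 and 236. The peptide editors H2-DMa and H2-DMb1 rose by 3.06 and 8.75, and H2-Oa, which restrains them, by 1.72, though it was not called without IFN-γ replicate 3 (1.41).

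In the class I pathway 15 of 18 genes rose, with a median of 1.69. The heavy chains H2-K1 (1.80) and H2-D1 (1.63) are similar in sequence, so that reads in their shared parts were not counted. Tap1, a chain of the peptide transporter, rose from 46.9, 45.9 and 49.9 CPM to 323, 341 and 306 CPM (2.78), and Nlrc5, the activator of class I genes, by 1.80. The immunoproteasome subunits Psmb9, Psmb8 and Psmb10 rose by 3.05, 2.17 and 1.99. Psmb9 was at 19.8, 21.2 and 17.5 CPM in PBS and at 164, 154 and 164 CPM with IFN-γ. None of the 14 constitutive core subunits was called in either direction. They ran from -0.12 for Psmb6, whose place Psmb9 takes, to 0.53 for Psmb7, and 13 of the 14 were above zero. The general chaperones Calr, Pdia3 and Canx were not called.

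**Figure D3:**
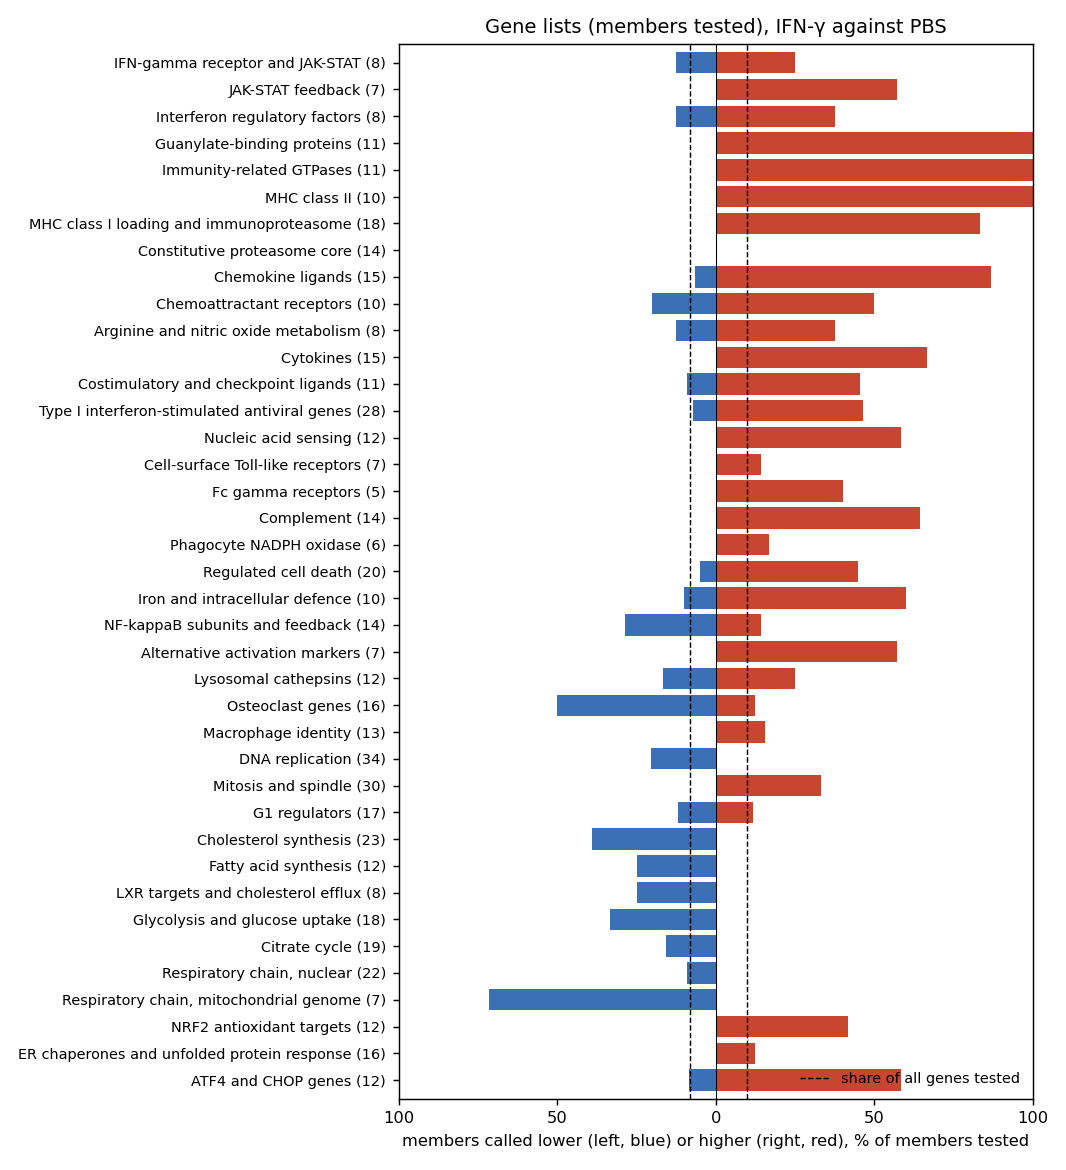
Share of the tested members of each of 39 gene lists called higher (red, right) or lower (blue, left) with IFN-γ, in percent of members tested, whose number stands in brackets. Dashed lines give the same shares over all genes tested (9.79% and 8.28%), and GTPase and MHC class II lists are full to the right while mitochondrial and osteoclast lists point left.

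Of 21 chemokine genes 15 were tested, of which 13 rose and 1 fell, where 9.79% and 8.28% of all tested genes did. Of the 6 not tested, 4 were at 0 in every library. Members at 0 in PBS, such as Cxcl9, Cxcl11 and Ccl12, passed the filter through the IFN-γ libraries alone. They could therefore only be called higher. Cxcl9 (chromosome 5, 92321347 to 92328079), a ligand of CXCR3 on T cells, had 0 counts in all PBS libraries and 35.5, 16.6 and 39.7 CPM with IFN-γ, at least 228-fold higher. Cxcl10, its neighbour in the genome, was already present at 0.338, 0.453 and 1.17 CPM and reached 3.81, 4.21 and 4.53 CPM (2.70, and 3.41 without PBS replicate 3). With IFN-γ the level per kilobase of exon was 10.1 CPM for Cxcl9 and 1.86 CPM for Cxcl10. The third ligand, Cxcl11, was at least 19.8-fold higher. Of the monocyte-attracting CC chemokines, Ccl7 rose by 4.23, Ccl2 by 1.77 and Ccl12 was at least 25.9-fold higher. Ccl3 and Ccl4, abundant in PBS, rose by 0.64 and 0.85, but Ccl3 was not called without IFN-γ replicate 3 or PBS replicate 1 (0.55 in both). Ccl9 fell by 0.76, from 315, 317 and 326 CPM to 200, 158 and 200 CPM.

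The receptors of such signals moved both ways. Cx3cr1 (chromosome 9, 119901616 to 120069879), the fractalkine receptor, had the largest fall of the genes with at least 10 CPM. It was at 20.8, 42.9 and 42.4 CPM in PBS and at 0.492, 0.777 and 0.425 CPM with IFN-γ, a fall by 5.93 on the log2 scale (SE 0.351, adjusted p 1.76e-07). PBS replicate 1 had the lowest PBS level, and the difference was -6.20 without it. Gpr183, a receptor for oxysterols, was at 40.9 CPM in each PBS library and at 6.27, 5.40 and 7.83 CPM with IFN-γ (-2.64). Fpr2 (4.74, and 5.47 without PBS replicate 1), P2ry12 (2.07), Ccr2 (1.47), Ccrl2 (1.33) and C3ar1 (0.96) rose.

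Genes of nitric oxide synthesis rose, 3 of the 8 tested arginine and nitric oxide genes in all, and 1 fell. Nos2 (chromosome 11, 78920787 to 78960254), the inducible synthase, was at 7.85, 25.6 and 32.2 CPM in PBS and at 323, 270 and 315 CPM with IFN-γ, a log2 fold change of 3.81 (SE 0.347, adjusted p 6.89e-06). PBS replicate 1 was the low one, and without it the change was 3.40. Ass1, which recycles citrulline to arginine, rose by 2.39 and Gch1, which starts the synthesis of the cofactor tetrahydrobiopterin, by 0.88. Arg2, an arginase, fell by 3.26 at a low level, from 2.36, 1.54 and 2.39 CPM to 0.492, 0.0818 and 0.0472 CPM, and by 4.86 without IFN-γ replicate 1. Arg1, the arginase of alternative activation, had 6 counts over the PBS and 1 over the IFN-γ libraries and was not tested.

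Of 15 cytokine genes tested, 10 rose and none fell. Il6 went from 0.127, 0.317 and 0.141 CPM to 3.03, 3.76 and 3.87 CPM (4.17), so it stayed low. Il18bp, the decoy of IL-18, rose by 4.97 and Csf1, the macrophage growth factor, by 3.31. Il27 rose by 2.83, Il15ra by 1.67, and Tnfsf13b, which encodes BAFF, by 1.59. Tnf was at 28.8, 42.2 and 40.1 CPM in PBS and at 60.9, 52.1 and 63.3 CPM with IFN-γ (0.68, adjusted p 0.00217), and was not called without PBS replicate 1 (0.52). Il1b had 7 and 14 counts and Il12b 2 and 0 counts over the PBS and IFN-γ libraries, too few to test. Il1rn, the natural blocker of IL-1, was at -0.54 and not called, but was called lower without IFN-γ replicate 1 (-0.60), IFN-γ replicate 3 (-0.70) or PBS replicate 2 (-0.61).

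On the T cell side, 5 of 11 tested costimulatory and checkpoint ligand genes were called higher and 1 lower. Of all tested genes 9.79% were called higher and 8.28% lower. Cd86 rose from 4.94, 5.12 and 3.89 CPM to 61.0, 52.9 and 60.7 CPM (3.66), while Cd80, the other ligand of CD28, fell from 10.8, 10.9 and 7.88 CPM to 3.40, 4.25 and 4.15 CPM (-1.31). Cd274, which encodes PD-L1, rose from 22.2, 18.8 and 19.4 CPM to 103, 114 and 99.4 CPM (2.40), and Cd40 by 2.08. The groups did not overlap for any of these genes, as was so for 51.7% of all tested genes. Among the 5 Fc gamma receptor genes, Fcgr1 (1.55) and Fcgr4 (1.40), both activating, rose, and the inhibitory Fcgr2b was at 0.48 and not called. Fcgr3, also activating, was at -0.56 and not called. It was called lower without IFN-γ replicate 2 (-0.71) or PBS replicate 3 (-0.64).

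Complement genes rose in 9 of 14 cases, with a median of 3.22. The 3 chains of C1q went from the detection limit to clear expression. C1qc was at 0.211, 0.0906 and 0.0938 CPM in PBS and at 37.1, 25.0 and 44.0 CPM with IFN-γ (256-fold higher), and C1qb rose by 7.45. C3 rose from 24.3, 23.5 and 21.9 CPM to 198, 171 and 197 CPM (3.04).

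Of 28 tested classical antiviral genes of type I interferon, 13 rose and 2 fell, with a median of 0.52. Of all tested genes 9.79% were called higher and 8.28% lower, so the share that fell was near that of all genes. Mx1 (4.33, and 5.52 without PBS replicate 3), Ifit3 (2.77), Oasl2 (2.71) and Rsad2 (2.69), which encodes viperin, rose most. Oas2 fell by 1.34, from 59.4 ± 4.45 CPM to 23.2 ± 3.34 CPM (SD, n = 3), and Ddx58, which encodes the RNA sensor RIG-I, by 0.79. Sensors of nucleic acids rose in 7 of 12 cases. Zbp1, a sensor that can start necroptosis, went from 1.77, 1.77 and 1.83 CPM to 51.5, 49.2 and 58.0 CPM (4.90). Tlr9 rose by 2.12 and Tmem173, which encodes STING, by 1.51. Tlr7 was at -0.34 and Tlr13 at -0.53, and neither was called. Without IFN-γ replicate 2 (-0.61) or PBS replicate 3 (-0.63) Tlr13 was called lower.

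Among genes of regulated cell death 9 of 20 rose. Casp1 (1.35), Casp4 (1.32), the necroptosis effector Mlkl (1.24) and Fas (1.11) were the largest. The protective Mcl1 was the only one that fell, from 514, 492 and 474 CPM to 230, 241 and 211 CPM (-1.10), and the protective Bcl2l1 rose by 0.87.

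Of 10 genes of iron handling and intracellular defence 6 rose and 1 fell. The transferrin receptor gene Tfrc fell by 1.24, from 264, 158 and 141 CPM to 83.9, 80.2 and 70.8 CPM. Slc40a1, which encodes the exporter ferroportin, rose by 1.79, the phagosomal transporter gene Slc11a1 by 1.48 and Hmox1, which frees iron from haem, by 1.27. Lcn2, which binds microbial siderophores, rose by 2.89 and Acod1, which makes itaconate, by 1.89. Among the 6 NADPH oxidase subunits, Cybb was called (1.20).

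The other large rises were outside these families. Ly6a, which encodes the surface antigen Sca-1, went from 0.169, 0.0453 and 0.0469 CPM to 272, 324 and 300 CPM (11.64, and 12.51 without PBS replicate 1). Serpina3f and Serpina3g, neighbouring serine protease inhibitors, had 1 PBS count each and ratios of 3830 (counting interval 687 to 151315) and 1940 (348 to 76659), the single count being in PBS replicate 1. Reads that these related genes share were not counted. H2-Ea-ps, a class II pseudogene in the reference, had 3 PBS counts and 272, 195 and 323 CPM with IFN-γ (12.37, and 13.26 without PBS replicate 3). Of genes used as markers of other cell types, Ighm rose from 29.0, 34.3 and 38.9 CPM to 250, 166 and 262 CPM (2.75), Lck by 0.99 and Csf3r by 1.14, and Klrk1 was at least 21.1-fold higher. The defining markers of T, B and NK cells were at 0, as given above.

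Genes of the osteoclast, the bone-resorbing cell that RAW264.7 cells can form, fell more often than they rose: 8 of 16 were called lower and 2 higher. Ctsk (chromosome 3, 95499256 to 95509362), the bone collagen protease cathepsin K, went from 100, 94.1 and 90.3 CPM to 12.4, 15.9 and 12.4 CPM, a fall by 2.79 (SE 0.106, adjusted p 3.28e-09). Acp5, which encodes the acid phosphatase TRAP, fell by 2.27, Oscar by 2.20, Mmp9 by 1.72, Atp6v0d2 by 1.51, and the transcription factor genes Mitf and Nfatc1 by 1.02 and 0.69. Ocstamp (1.44), a fusion gene, and Clcn7 (0.69) rose. The count of 8 was the same without any 1 library. Of other cathepsins, Ctsc (1.92) and Ctsh (1.34) rose, Ctsf fell by 1.83, and the abundant Ctsb was at -0.19 and not called. Of the largest falls not yet named, Igfbp4 fell by 2.88, Deptor, an inhibitor of mTOR, by 3.09, Tmem176a by 2.87, Tmem176b by 2.69, Tnfrsf9, the receptor 4-1BB, by 3.14, Selenbp1 by 3.61 and the coagulation factor gene F10 by 2.56.

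Genes of mitosis and of DNA replication were described apart. All 30 mitosis and spindle genes were above zero and 10 were called higher (8 to 12 without any 1 library, 9 with scaling to total counts). Ube2c (1.05), Cenpe (0.87), Bub1b (0.85) and Ccnb1 (0.84) were the largest, and IFN-γ replicate 2 was the lowest IFN-γ library for each. Ube2c was at 43.6, 53.9 and 73.9 CPM in PBS and at 120, 92.3 and 139 CPM with IFN-γ. Of 34 DNA replication genes 7 were called lower and none higher, with Cdc45, a helicase cofactor, at 0.58 and called higher by DESeq2, with its size factors, at a CPM of at least 1, or without IFN-γ replicate 2 or PBS replicate 1. Mcm6, a subunit of the replicative helicase, went from 151, 100 and 82.1 CPM to 36.0, 44.1 and 39.3 CPM (-1.46), and Mcm7 (-0.99), Uhrf1 (-0.87) and Rrm2 (-0.83) also fell. PBS replicate 1 was the highest PBS library for each of these, and without it 5 of the 7 were called, Mcm4 (-0.41) and Lig1 (-0.43) not. Lig1 was also not called without IFN-γ replicate 2 (-0.56) or with a replicate block (-0.58). Not all helicase subunits moved alike, since Mcm2 was at 0.38 and not called. Ccnd2 rose by 3.05 and Myc by 1.72, and Ccne2 fell by 1.59.

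Genes of lipid synthesis were called in 1 direction, lower. Of 23 cholesterol synthesis and uptake genes 9 were called lower and none higher, and 17 were below zero. Idi1, an isomerase of the isoprenoid steps, went from 4.43, 2.76 and 3.05 CPM to 2.01, 1.64 and 1.46 CPM (-0.98), with no overlap between the groups, and Hmgcs1, an early enzyme, fell by 0.79 on the log2 scale. Of 12 fatty acid synthesis genes, Fasn (-0.86), Elovl6 (-0.72) and Acaca (-0.62) fell, of which Elovl6 (-0.58) and Acaca (-0.53) were not called without PBS replicate 1. Cd36, a scavenger receptor that takes up lipid, rose by 2.44. Abca1, the cholesterol exporter, fell by 1.16.

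Transcripts of the mitochondrial genome took 2.18%, 1.57% and 1.69% of the counts in PBS and 0.958%, 0.937% and 1.04% with IFN-γ. They were measured for 7 of its genes, of which 5 were called lower, and 6 others were listed at 0 in every library, so their level is not known. mt-Cytb, a subunit of complex III, was at 5145, 4072 and 4289 CPM in PBS and at 1253, 1300 and 1392 CPM with IFN-γ (-1.76, and -1.66 without PBS replicate 1, the highest PBS library). The complex I genes mt-Nd1, mt-Nd2, mt-Nd4 and mt-Nd5 fell by 1.39, 1.21, 1.14 and 0.86. mt-Co1, in complex IV, was at 7789, 5630 and 6150 CPM in PBS and at 5158, 4941 and 5336 CPM with IFN-γ and was not called. Of 22 nuclear genes of the respiratory chain 2 were called lower, Ndufa4 (-0.69) and Cox6c (-0.63), a share near the 8.28% of all tested genes, and the median was -0.18. In the citrate cycle Idh1 (-1.22), Idh2 (-0.82) and Sdhd (-0.67) fell out of 19 genes.

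Genes of glycolysis and of the response to low oxygen, which the factor HIF drives, were also lower, but here PBS replicate 1 stood near the IFN-γ libraries. Of 18 glycolysis genes 6 were called lower, and 11 without PBS replicate 1. Ldha, which makes lactate, was at 1622, 2536 and 2462 CPM in PBS and at 979, 1027 and 1002 CPM with IFN-γ (-1.12, and -1.31 without PBS replicate 1). A list of 23 known HIF targets was written after such values had been seen and is a description only: 12 of its 22 tested members were called lower and none higher. Without PBS replicate 1 all 23 were tested and 14 were called lower. Egln3, 1 of these 14, was not tested with PBS replicate 1 included. Adm, which encodes the vasodilator adrenomedullin (chromosome 7, 110627661 to 110629820), was at 0.971, 12.5 and 17.1 CPM in PBS and at 0.615, 0.327 and 0.236 CPM with IFN-γ (-4.64, SE 0.864, adjusted p 0.00127, and -4.04 without PBS replicate 3). P4ha2, a collagen prolyl hydroxylase, fell by 3.49 on the log2 scale, and by 4.24 without IFN-γ replicate 2. Bnip3, a mitophagy receptor, was at 22.8, 92.4 and 108 CPM in PBS and at 21.5, 21.2 and 21.1 CPM with IFN-γ (-1.79). Not every target was called, since the glucose transporter gene Slc2a1 was at 0.23 and Vegfa at -0.03.

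The low level in replicate 1 was seen in the other groups without IFN-γ as well. Over PBS, LE, SE and PE, Bnip3 was at 22.8 to 36.1 CPM in the replicates numbered 1 and at 74.3 to 119 CPM in those numbered 2 and 3. Adm was at 0.971 to 3.37 CPM against 9.83 to 24.2 CPM, and Ankrd37, a HIF target of unsettled function, at 1.27 to 4.21 CPM against 9.01 to 13.7 CPM. Replicate 1 was the lowest of its group in 4 of 4 groups for each of these genes, and also for P4ha2, Ak4, Ldha and Cx3cr1. In the 4 groups with IFN-γ no such gap was seen for Bnip3, which lay between 20.5 and 44.3 CPM. The difference of replicate 1 was not limited to genes of the response to low oxygen and Cx3cr1. In the groups without IFN-γ, replicate 1 was also the lowest of each group for Nos2 and Mmp9 and the highest of each for mt-Cytb. Arg2 and mt-Co1 held no such order over all 4 groups. What differed between replicate 1 and the others was not tested.

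**Figure D4:**
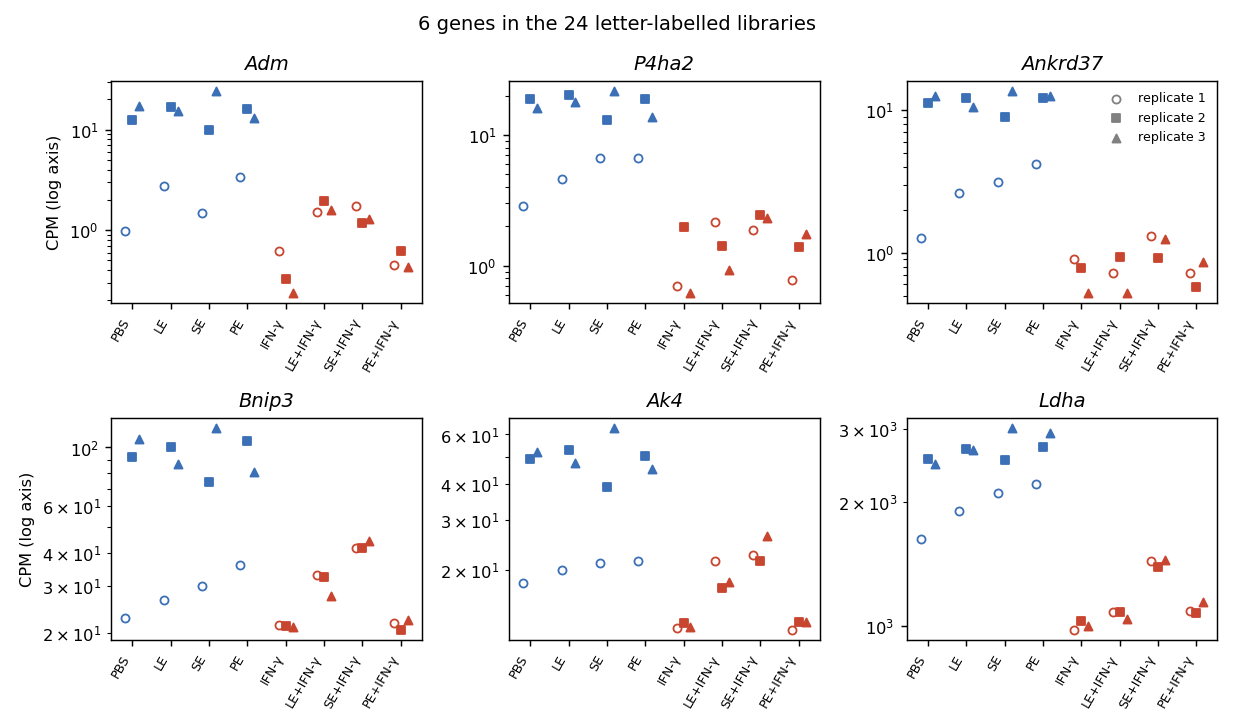
CPM on log axes for 6 genes of the response to low oxygen or of lactate production in the 24 letter-labelled libraries, blue without and red with IFN-γ, with open circles for replicate 1, squares for replicate 2 and triangles for replicate 3. In the 4 groups without IFN-γ the open circle is the lowest of each group, and for Adm it runs from 0.971 to 3.37 CPM.

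Genes of stress responses were called higher in most calls. Of 12 NRF2 antioxidant targets 5 rose, among them Gclm (1.46), a subunit of the enzyme for glutathione synthesis, and Prdx1 (1.30). Of 12 genes of the ATF4 and CHOP branch 7 rose. Ddit3, which encodes CHOP, went from 269, 431 and 547 CPM to 1309, 1235 and 1451 CPM (1.69), and Nupr1 (1.68), Ppp1r15a (1.47) and Atf3 (1.20) rose. PBS replicate 1 had the lowest PBS level of each of these 4 genes. Eif2ak3, which encodes the kinase PERK, fell by 0.64. Without IFN-γ replicate 3 or PBS replicate 1 it was just under the fold threshold and not called (-0.58 in both). Of 16 ER chaperone genes, Hspa5, which encodes BiP, rose from 6272, 7240 and 8495 CPM to 15321, 13076 and 14856 CPM (0.99) and Herpud1 by 0.73, and 14 were above zero. Only these 2 of the 16 were called, a share near the 9.79% of all tested genes called higher.

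Genes of NF-κB feedback fell more often than they rose: of 14, Nfkbie (-0.98), Nfkbia (-0.95), Tnfaip3 (-0.86) and Traf1 (-0.64) fell and Nfkbiz (3.04-fold) and Nfkbib (0.86 on the log2 scale) rose. Traf1 was not called without PBS replicate 3 (-0.47). Of 7 genes of surface Toll-like receptors and their co-receptors Tlr1 rose (0.72), and Tlr2 and the co-receptor gene Cd14 were both at -0.53. None of the markers of alternative activation was called lower. Of 7 tested, Cd36, Il4ra (1.11), Pparg (1.04) and Klf4 (0.82) rose, and Chil3 and Retnla were at 0. Pparg was not called without IFN-γ replicate 3 (0.77, adjusted p 0.0674). Of 13 macrophage identity genes Adgre1 (0.77) and Siglec1 (0.70) rose and 9 were below zero. None of these was called lower, but Fcgr3 (-0.56) was without IFN-γ replicate 2 or PBS replicate 3, Lyz2 (-0.55) without IFN-γ replicate 3 or PBS replicate 3, and Cd14 without IFN-γ replicate 3.

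The response was then set beside that of cells given a peptide as well, in libraries that share no sample with the 6 above. Of the 1199 genes called higher, 899 were also called higher for LE+IFN-γ against LE, where 18.9% of all 13096 genes were, 913 for SE (15.1% of all) and 1035 for PE (11.8% of all). Of the 1014 called lower, 651, 631 and 773 were called lower again, where 15.8%, 10.9% and 8.94% of all genes were. The question whether the response itself differed was tested as an interaction in a fit of all 24 letter-labelled libraries. The interaction was called in 2471 genes for LE (18.9%), 1043 for SE (7.96%) and 0 for PE (0%), where 1073 genes had an unadjusted p under 0.05. The PE count was 61 with all genes of at least 1 count and 1 without replicate 2. The SE count was 551 without replicate 1.

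Among the genes named in every case, the response of Cd274 was larger with LE, at 3.47 against 2.40 (interaction 1.07, SE 0.115, adjusted p 2.55e-07), as was that of Acod1 (interaction 1.80), Cxcl10 (1.66), Gbp2 (1.52) and Tnf (0.90). Of the class II genes, Cd74 responded less with LE (interaction -0.87) and SE (-0.78), as did H2-Ab1 (-1.46 and -1.88), while H2-Aa (-0.90 and -0.73) and Ciita (-1.62 and 1.21) were not called. The response of Irf1 (-0.80) was smaller with SE, those of Acod1 (1.41) and Cxcl10 (1.39) were larger, and Cx3cr1 fell less (1.91). For Cxcl10 and Cx3cr1 the adjusted p of this interaction was near the threshold, at 0.0416 and 0.0378. Cx3cr1 was at 20.8 to 42.9 CPM in PBS and 13.9 to 23.9 CPM with SE alone. With IFN-γ it was at 0.425 to 0.777 CPM without a peptide and 1.02 to 1.53 CPM with SE. H2-Ab1 and Gbp2 were near the detection limit without IFN-γ, and small counts there enter their differences. Cxcl10 was low in PBS and Cx3cr1 low with IFN-γ, so small counts enter theirs as well. For PE no interaction of a named gene was called, with Cd274 at -0.09 (SE 0.116) and Irf1 at -0.08 (SE 0.132).

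**Figure D5:**
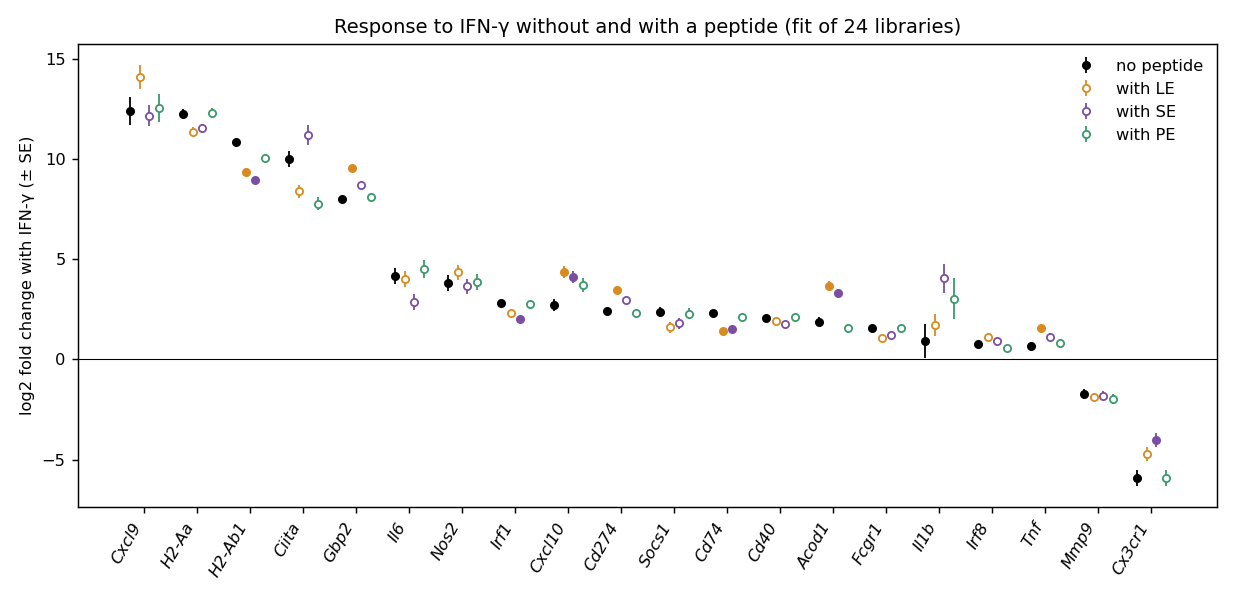
Log2 fold change with IFN-γ (± SE of the fit) of the genes named in every case, without a peptide (black) and with LE (orange), SE (purple) or PE (green), from a fit of 24 libraries. Filled coloured points are those whose difference from the response without a peptide was called. Cd274, Gbp2, Acod1, Cxcl10 and Tnf lie higher with LE, and H2-Ab1 and Cd74 lie lower with LE and SE.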

How the data were processed

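The deposited data are raw counts by the authors, in 1 table with 49568 genes and 48 columns, and each column was matched to 1 sample by its name. Per the study's methods and processing notes, stranded polyadenylated libraries were read single-ended over 100 bases, and uniquely aligned reads were counted by the authors with featureCounts (Rsubread 1.5.0p3) on GENCODE M12 and GRCm38.p5. The aligner is not given in the sources used here. The authors tested with DESeq2 1.16.1 in R 3.4.1. Names that looked like dates (26) or occurred more than 1 time (2 names, 4 lines) stayed in the fits and are not named.

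Groups came from the sample labels. The 3 IFN-γ and 3 PBS letter-labelled libraries were fitted with edgeR 4.0.16 in R 4.3.3 (TMM scaling, filterByExpr, quasi-likelihood F test, 2 groups, no covariate). The script was tested on simulated data. CPM are counts per library total. A group at 0 was set to 3 counts per library for a bound, and a group with 1 to 3 counts gets an exact 95% interval of the ratio (binomial, counting error only). P-values measure the spread between these replicates. Replicate pairs differed beyond counting noise (chi-square per degree of freedom 5.89 to 25.9), so each library counted as 1 replicate. Gene positions and lengths are from GENCODE M21 (GRCm38), for 47181 symbols, and promoter sequences from RefSeq on GRCm38.p6.

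Named genes were drawn from the 12 largest called changes per direction with a mean of at least 10 CPM and no overlap, up to 4 called members per direction of each of 45 lists, 22 genes in every case, and other members with values only. Other genes were chosen after their values were seen. Some members of the lists are not reported here by name, though list counts include them. The members and lists were chosen with earlier results of these data known. Alternatives were DESeq2 1.42.0, other scalings, filters and thresholds, each library left out, a replicate block, all letter-labelled libraries, and the HLA-labelled libraries.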

Additional observations from a re-analysis of the deposited data

Results flagged for a closer look

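The response to IFN-γ differed between cells with and without a peptide by the test of the interaction, edgeR with Benjamini-Hochberg adjustment over 13096 genes. It was called in 2471 genes with LE and in 1043 genes with SE. With LE the log2 difference from the response without a peptide was 1.52 for Gbp2, 1.66 for Cxcl10, -0.87 for Cd74, -1.46 for H2-Ab1, 1.07 for Cd274, 1.80 for Acod1 and 0.90 for Tnf. With SE it was -0.80 for Irf1, 1.39 for Cxcl10, -0.78 for Cd74, -1.88 for H2-Ab1, 1.41 for Acod1 and 1.91 for Cx3cr1. Of these, Cxcl10 and Cx3cr1 were near the threshold, with adjusted p 0.0416 and 0.0378. Groups of 3 libraries are too small for a test of single outlying libraries.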

How the results depend on the processing

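The count of 2213 called genes lay between 1947 and 2480 under DESeq2 (2145), size factors (2211), total counts (2219), filters on low counts (2480 at 1 count or more, 2032 at a CPM of at least 1), protein-coding genes alone (1947), a subtracted trend on length and GC content (2109), all 24 letter-labelled libraries (2417) and with each library left out (1967 to 2400). It was 4855 with no fold minimum and 1065 at over 2-fold. Without PBS replicate 1, 1906 of the 2213 genes were called the same way. Replicate numbers were not treated as pairs: deviations of same-numbered libraries correlated at 0.0664, 0.109 and 0.0826, each library correlated best with its own number, a hint from the data only, and the replicate block gave 2214 genes for IFN-γ against PBS and, for the interaction, 2530 (LE), 1130 (SE) and 0 (PE) genes.

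On both label series 1 gene was called (765 with an unadjusted p under 0.05), 1 list member and 1 named gene. With the HLA-labelled libraries alone these were 0 (1447 with an unadjusted p under 0.05), 0 and 0, and by label IFNy against PBS the log2 fold change turned for Cd40 (-0.78), Fcgr1 (-0.43), Gbp2 (-0.51), Il6 (-1.47), Cxcl10 (-0.83), Irf1 (-0.12), Nos2 (-2.16), Acod1 (-1.28), Socs1 (-0.63), Tnf (-0.39), Cd74 (-0.30), Cd274 (-0.32), Tmem176b (0.63), Tmem176a (0.69), F10 (0.28), Cx3cr1 (0.46), Igfbp4 (0.48), Gpr183 (0.59) and Deptor (0.36). The cause was not tested. In the deposited table the columns of these libraries stand in another order than their labels would give, so whether each label belongs to its column is not known and these values hold by label only. The interaction counts with each replicate number left out were 1997 to 2336 (LE), 551 to 1193 (SE) and 0 to 1 (PE), and PE gave 61 genes at 1 count or more. Of 493 values of 38 named genes under 13 alternatives on letter-labelled libraries, 492 kept their direction and side of the threshold, the exception being Tnf without PBS replicate 1. Of 167 named genes called, 161 to 167 were called the same way under these. The 38 genes include the 12 largest called changes per direction, and the 167 were taken because they were called, in the same libraries. Little movement could therefore be seen for them, and these counts say little about other genes. Genes with hardly any PBS count moved by over 1.5 times without a single PBS library (Ciita from 10.02 to 11.90 without PBS replicate 1, Serpina3f from 11.47 to 13.35 and Serpina3g from 10.49 to 12.37 also without it, Iigp1 from 11.90 to 13.80 and Gbp5 from 9.57 to 11.48 without PBS replicate 2).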
